A study of Homo sapiens with 12 samples.

Results

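The nuclear-encoded subunits of the mitochondrial respiratory chain were followed in RNA-seq of LNCaP cells, a human prostate cancer line, after knockdown of FOXA1 or TRIM28. Members were all gene symbols of the deposited tables built as NDUFA, NDUFB, NDUFC, NDUFS or NDUFV plus a number, SDHA to SDHD, UQCR plus letters or digits, COX4 to COX8 names, or ATP5 plus letters or digits. Names that end in P plus a number, which mark pseudogenes, were left out. The rule found 87 of 60835 symbols, with 36 in complex I, 4 in complex II, 9 in complex III, 19 in complex IV and 19 in complex V. NDUFA4 was placed in complex IV, where the protein is found. In both comparisons 7 members had too few counts to be tested (COX8BP, COX4I2, COX6A2, COX6B2, COX7A1, COX8C and ATP5MGL), and COX7B2 and NDUFA7 were tested in the FOXA1 set and not in the TRIM28 set. The rule by its letters also kept COX8BP, the name of a pseudogene, and the copies UQCRHL and ATP5MGL. It used no measured value, but the members were proposed with earlier results of these data in view.

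The series held 4 groups of 3 libraries each. LNCaP cells with an shRNA against FOXA1, a pioneer transcription factor of luminal prostate cells, were set against cells with control shRNA. LNCaP cells with an shRNA against TRIM28, a chromatin corepressor also known as KAP1, were set against their own control shRNA libraries. The design text calls the replicates biological, and the cell line field spells the line LACAP. The titles of the knockdown libraries begin with SH control, while their treatment and description fields name the knockdown, and those fields were followed. The number of hairpins per gene, the vector, whether clones were picked and the time after knockdown were not given in the sources used here. All libraries were made from poly(A)-selected RNA and carry the same batch label.

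Respiratory complexes sit in the inner mitochondrial membrane. Complex I takes electrons from NADH and complex II takes them from succinate, and both hand them to coenzyme Q. Complex III passes them to cytochrome c and complex IV to oxygen, while complex V, the ATP synthase, uses the proton gradient across the membrane to make ATP. All subunits of complex II are encoded in the nucleus, and the other complexes combine nuclear subunits with a few that the mitochondrial genome encodes. Healthy luminal prostate cells are known for secreting citrate instead of oxidising it, and prostate cancer cells for oxidising it again. FOXA1 is known to open chromatin for other transcription factors, and TRIM28 to silence transposable elements together with zinc finger proteins.

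Total counts ran from 12256092 to 15152890 per library. The targeted genes were lower in the libraries labelled as their knockdowns. FOXA1 stood at 596, 582 and 533 CPM (counts scaled to library size by TMM) in the FOXA1 controls and 167, 163 and 167 in the FOXA1 knockdown. TRIM28 stood at 396, 413 and 404 CPM in the TRIM28 controls and 129, 115 and 56.6 in the TRIM28 knockdown. FOXA1 mRNA was also lower in the TRIM28 knockdown, with 583, 616 and 563 CPM in controls and 278, 253 and 412 after knockdown (a log2 fold change of -0.90 with SE 0.17 and adjusted p = 0.0055), so both knockdowns share a lower FOXA1 level. TRIM28 mRNA was in turn called lower after FOXA1 knockdown, by less, at a log2 fold change of -0.19. That call was lost in an edgeR fit of all 12 libraries together (-0.18, adjusted p = 0.562) and against a required change of 1.2-fold. TRIM28 knockdown replicate 3 stood apart from its 2 partners, with a chi-square per degree of freedom over gene counts of 22.6 and 20.4, against 2.94 to 5.73 for every other replicate pair. Its stromal markers (COL1A1, COL1A2, COL3A1, DCN, LUM and PDGFRB) summed to 80.0 FPKM, against 5.00 to 6.84 in the other 11 libraries. Counts of members in the TRIM28 comparison are therefore given with and without that library, and the part of those markers in the results was not tested. Of the 9 luminal markers in the list, the 7 genes KLK2, KLK3, HOXB13, TMPRSS2, FOLH1, KRT8 and KRT18 were detected in all libraries and together summed to 660 to 703 FPKM in controls, 557 to 576 in the FOXA1 knockdown and 466 to 520 in the TRIM28 knockdown; this is not the sum of the whole list. The basal markers KRT5, KRT14 and TP63 summed to 0.169 to 0.447 FPKM in controls, 1.74 to 2.11 in the FOXA1 knockdown and 0.171 to 1.31 in the TRIM28 knockdown. The muscle markers MYH7, MYH2, ACTC1 and CKM summed to at most 0.108 FPKM in controls, 0.158 to 0.259 in the FOXA1 knockdown and 0.568 to 2.66 in the TRIM28 knockdown. The part of these markers in the results was not tested either.

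Promoter sequences are shown for 1 member of each of complexes II, III and IV that fell in a knockdown, for 2 ATP synthase members that fell and for the ATP synthase inhibitor, which rose. Each is the 120 bases before the first listed transcription start in RefSeq on GRCh38.p14, 5′ to 3′ on the gene's strand. Capitals mark a match to the NRF1 motif, GCGCA and GCGC with 1 base of any kind between them, or the ETS motif CCGGAAG, on either strand. The regions are chr3:48609647-48609766, minus strand for UQCRC1; chr1:17054033-17054152, minus strand for SDHB; chr2:97645942-97646061, plus strand for COX5B; chr10:7788057-7788176, plus strand for ATP5F1C; chr17:48892667-48892786, plus strand for ATP5MC1 and chr1:28236004-28236123, plus strand for ATP5IF1.
UQCRC1: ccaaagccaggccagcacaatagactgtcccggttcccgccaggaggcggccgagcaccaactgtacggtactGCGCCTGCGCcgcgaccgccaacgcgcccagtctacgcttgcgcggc
SDHB: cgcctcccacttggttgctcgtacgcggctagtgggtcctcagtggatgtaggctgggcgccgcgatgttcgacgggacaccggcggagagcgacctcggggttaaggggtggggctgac
COX5B: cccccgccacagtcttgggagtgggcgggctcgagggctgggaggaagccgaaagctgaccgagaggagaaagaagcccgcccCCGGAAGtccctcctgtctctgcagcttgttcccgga
ATP5F1C: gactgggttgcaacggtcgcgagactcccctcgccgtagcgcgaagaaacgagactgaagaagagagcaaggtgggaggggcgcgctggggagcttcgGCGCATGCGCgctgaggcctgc
ATP5MC1: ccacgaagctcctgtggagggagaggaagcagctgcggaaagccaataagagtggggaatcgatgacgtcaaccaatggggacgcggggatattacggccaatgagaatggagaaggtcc
ATP5IF1: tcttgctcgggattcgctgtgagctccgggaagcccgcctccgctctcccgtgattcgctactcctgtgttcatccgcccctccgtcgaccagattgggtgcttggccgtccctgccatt
UQCRC1 and ATP5F1C hold an NRF1 match in these bases, 47 and 22 bases before the start, and COX5B an ETS match 37 bases before it. The stretches of SDHB, ATP5MC1 and ATP5IF1 hold neither.

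RefSeq promoters of 300 bases, 250 before to 50 after the first listed start, matched 69 of the 87 members. The NRF1 motif, named for a regulator of nuclear genes for mitochondrial proteins, was in 17 of them (24.6%), against 6.28% of all 27305 promoters and 12.0% of the 10787 promoters of tested genes. The ETS motif, which GABPA can bind, was in 20 (29%), against 10.7% of all and 19.3% of tested genes. AAGATGGC, a core letter string of YY1 sites, was in 11 (15.9%), against 3.03% and 5.34%. With the 50 bases after the start left out, it was in 1 (1.45%), against 1.37% of all. GGGCGG, the SP motif, was in 42 (60.9%), against 44.6% and 69.9%. The forkhead string TGTTTAC was in 0 of 69 member promoters, against 3.41% of all and 2.34% of tested genes, and TGTTTGC was in 4 (5.8%), against 3.87% and 2.72%. All motifs were searched on both strands, and none of these strings contains another, though matches may share bases. At least 1 of the NRF1, ETS and YY1 strings was in 39 of the 69. A match describes letters only, and no match says nothing of binding elsewhere.

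Levels differed widely among the members. FPKM (fragments scaled for transcript length and library total, which allows genes to be compared) was at least 5 in the mean of the 6 control libraries for 68 of 87 members and at least 100 for 28. ATP5F1B, the catalytic beta subunit of the ATP synthase, was the highest, with 1469 to 1633 FPKM in the 6 controls. UQCRH, the hinge protein of complex III, had a median of 514 FPKM and NDUFS5, an accessory subunit of complex I, 454. Among members at 5 FPKM or more, the median level was 36.9 FPKM in complex I, 136 in complex II, 45.8 in complex III, 117 in complex IV and 71.4 in complex V.

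**Figure D1:**
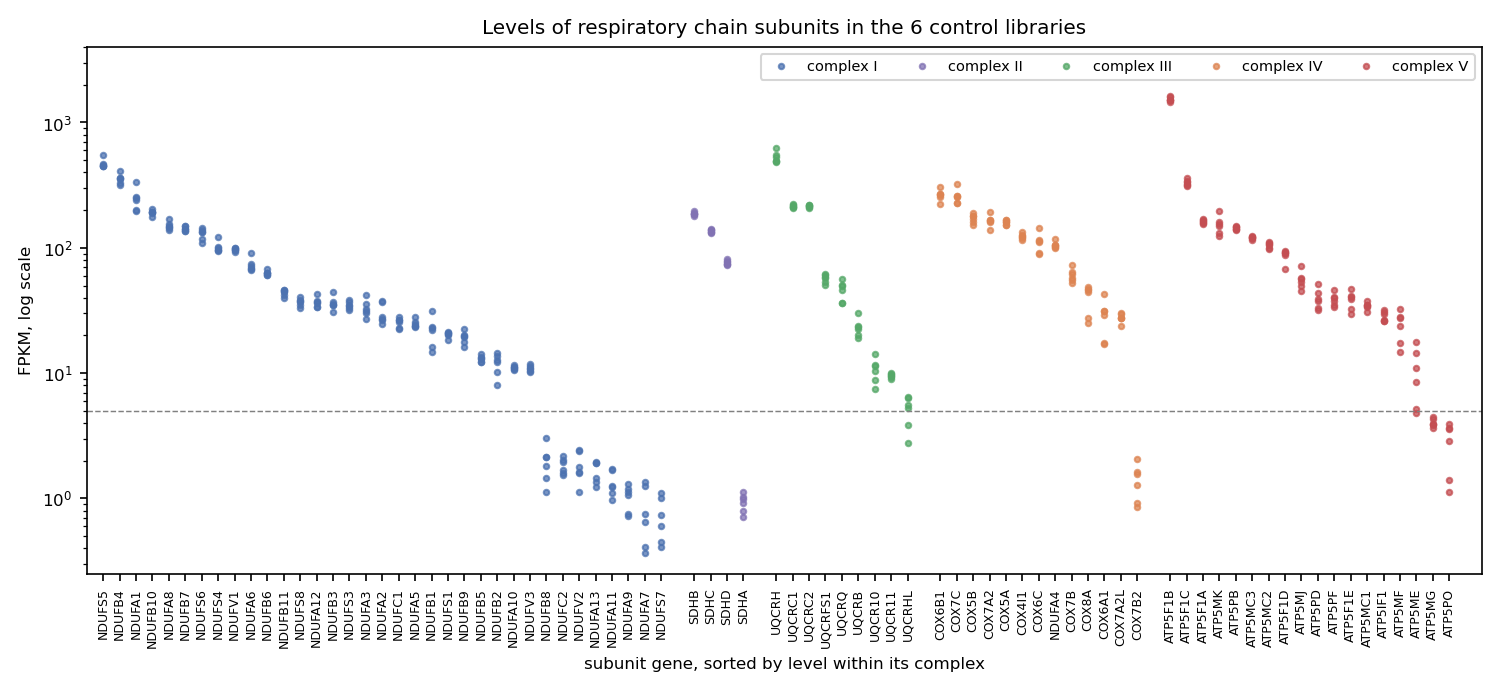
FPKM (log scale) of subunits in the 6 control libraries, 1 point per library, sorted within complexes I to V; the dashed line is 5 FPKM, and members with a 0 are not drawn there. ATP5F1B stands above all others at 1469 to 1633 FPKM, while 11 broadly known subunits, among them SDHA, lie below the line.

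Members with tissue-restricted relatives were read almost wholly from the common isoform. COX4I1 had a median of 123 FPKM in the 6 controls and the lung isoform COX4I2 a median of 0. COX6B1 stood at 265 FPKM and the testis isoform COX6B2 at 0.0192. COX7A2 stood at 164 FPKM, COX7A2L, a supercomplex factor, at 27.6 and the muscle isoform COX7A1 at 0.741. COX7B stood at 59.6 FPKM and COX7B2 at 1.42, COX8A at 45.1 and COX8C at 0, and COX6A1 at 30.0, with COX6A2 listed at 0. The hinge protein gene UQCRH stood at 514 FPKM and its copy UQCRHL at 5.44.

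Below 5 FPKM were also listed 11 subunits without tissue-restricted expression: SDHA, NDUFA7, NDUFA9, NDUFA11, NDUFA13, NDUFB8, NDUFC2, NDUFS7, NDUFV2, ATP5MG and ATP5PO. SDHA, the flavoprotein of complex II, had a median of 0.955 FPKM, while its partners SDHB, SDHC and SDHD stood at 187, 136 and 75.6. In the GENCODE 29 annotation, 9 of these 11 share exon bases on the same strand with another gene, 1 (NDUFS7) only on the opposite strand and 1 (SDHA) with none, against 15 with same-strand overlap among the 68 members at 5 FPKM or more. Values of these 11, and of members with near-identical copies elsewhere in the genome, are uncertain, since how reads shared between genes were counted is not given in the sources used here. The part of overlap in their low levels was not tested.

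In both knockdowns the subunits stood lower as a group. The members took up 1.36 ± 0.056% of all counts in the FOXA1 controls and 1.11 ± 0.047% after FOXA1 knockdown (mean ± SD, n = 3 each), and 1.32 ± 0.029% in the TRIM28 controls and 1.07 ± 0.019% after TRIM28 knockdown. Complex V, the largest portion, moved from 0.576 to 0.449% and from 0.566 to 0.439%. Complex I moved from 0.349 to 0.293% and from 0.337 to 0.291%, complex III from 0.164 to 0.135% and from 0.158 to 0.128%, and complex IV from 0.221 to 0.187% and from 0.207 to 0.177%. Complex II moved from 0.0476 to 0.0440% and from 0.0471 to 0.0402%. In bulk RNA, fewer cells of a type and less RNA per cell cannot be told apart.

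After FOXA1 knockdown, 36 of the 80 tested members fell and 2 rose (edgeR's quasi-likelihood test, adjusted p below 0.05), which is 45.0% down, where 26.3% of all 14953 tested genes fell and 26.1% rose (52.4% in all). The median log2 fold change of the members was -0.29, against -0.02 for all genes, and 73 of the 80 lay below 0. In 33 members every knockdown library was below every control, and in 2 every one was above, against a background of 29.2% of tested genes in each direction. After TRIM28 knockdown, 38 of 78 members fell and 2 rose (48.7% down), where 13.3% of 14981 tested genes fell and 13.3% rose (26.7% in all). The median was -0.36, against 0.00 for all genes, and 74 of 78 lay below 0. All 3 knockdown libraries were below all controls in 43 members, where the background was 22.1%, and above them in 2, where it was 21.8%. A single fit of all 12 libraries left 27 members down and 1 up after FOXA1 knockdown. In that fit 3089 of 15921 tested genes fell and 3168 rose. Scaling by library size alone left 27 members down in the TRIM28 knockdown, where 1502 of 14981 tested genes fell and 2597 rose. That scaling moved the share of rises among all called genes from 49.9 to 63.4%. Without TRIM28 knockdown replicate 3, 47 of 80 members fell and 3 rose, where 23.5% of all tested genes fell and 21.5% rose, and the median was -0.34.

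The share of falls was also higher among well-expressed genes at large. Of all tested genes at 5 FPKM or more, 35.7% fell after FOXA1 knockdown and 22.1% after TRIM28 knockdown, with medians of -0.06 and -0.09. The 68 members at that level fell in 33 cases (48.5%) and 38 cases (55.9%), with medians of -0.28 and -0.35. Between the 2 control groups, 0 of 79 tested members were called, where the background was 0.0%, and the median was -0.08. At an unadjusted p below 0.05 edgeR's test had 3 members, and DESeq2 and limma-voom also called 0.

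Where a pair of log2 fold changes is given below, the first is after FOXA1 knockdown and the second after TRIM28 knockdown. The lower level was present in each knockdown library. Over the tested members, the median level was 79.9, 78.2 and 90.5% of the control mean in FOXA1 knockdown replicates 1, 2 and 3, and 75.1, 83.3 and 76.5% in the TRIM28 knockdown replicates. The same median over all tested genes lay between 98.3 and 99.7% in these 6 libraries. The number of members below 100% of their control mean was 72, 73 and 65 of 80, and 74, 68 and 75 of 78. Against a required change of at least 1.2-fold (edgeR's glmTreat), 8 of the 36 falls remained after FOXA1 knockdown and 9 of the 38 after TRIM28 knockdown. At that setting 8 of 80 tested members fell after FOXA1 knockdown, where 2046 of all 14953 tested genes fell. After TRIM28 knockdown 9 of 78 fell, where 766 of 14981 did. Of the falls, 25 of 36 and 13 of 38 were kept in all fits that left out 1 of the 6 libraries. The 13 were ATP5F1A, ATP5F1D, ATP5MC1, ATP5MC2, ATP5MC3, COX5A, COX8A, NDUFB10, NDUFS8, NDUFV1, SDHB, UQCRC1 and UQCRQ. Without TRIM28 knockdown replicate 3 alone, 36 of the 38 were kept, ATP5MK and UQCRB being lost, and both rises were kept. The TRIM28 count was lowest, 14 members, without control replicate 2, where 5.65% of all tested genes fell. It stood at 19 without control replicate 1 and 22 without knockdown replicate 1, where 7.07% and 9.68% of all tested genes fell. Under 8 other settings of the fit, the minimum fold apart, 24 of the 36 falls and 25 of the 38 were kept in all. Lost in at least 1 of them after FOXA1 knockdown were ATP5MG, ATP5PB, COX5A, COX5B, COX7A2, NDUFA2, NDUFA3, NDUFA4, NDUFA8, NDUFB7, NDUFS4 and NDUFV2, of which 11 were lost in the single fit of 12 libraries. After TRIM28 knockdown they were ATP5ME, ATP5MF, ATP5MK, COX7C, NDUFA3, NDUFB2, NDUFB3, NDUFB6, NDUFS1, NDUFS4, NDUFS5, UQCRB and UQCRH, of which 11 were lost with scaling by library size alone.

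**Figure D2:**
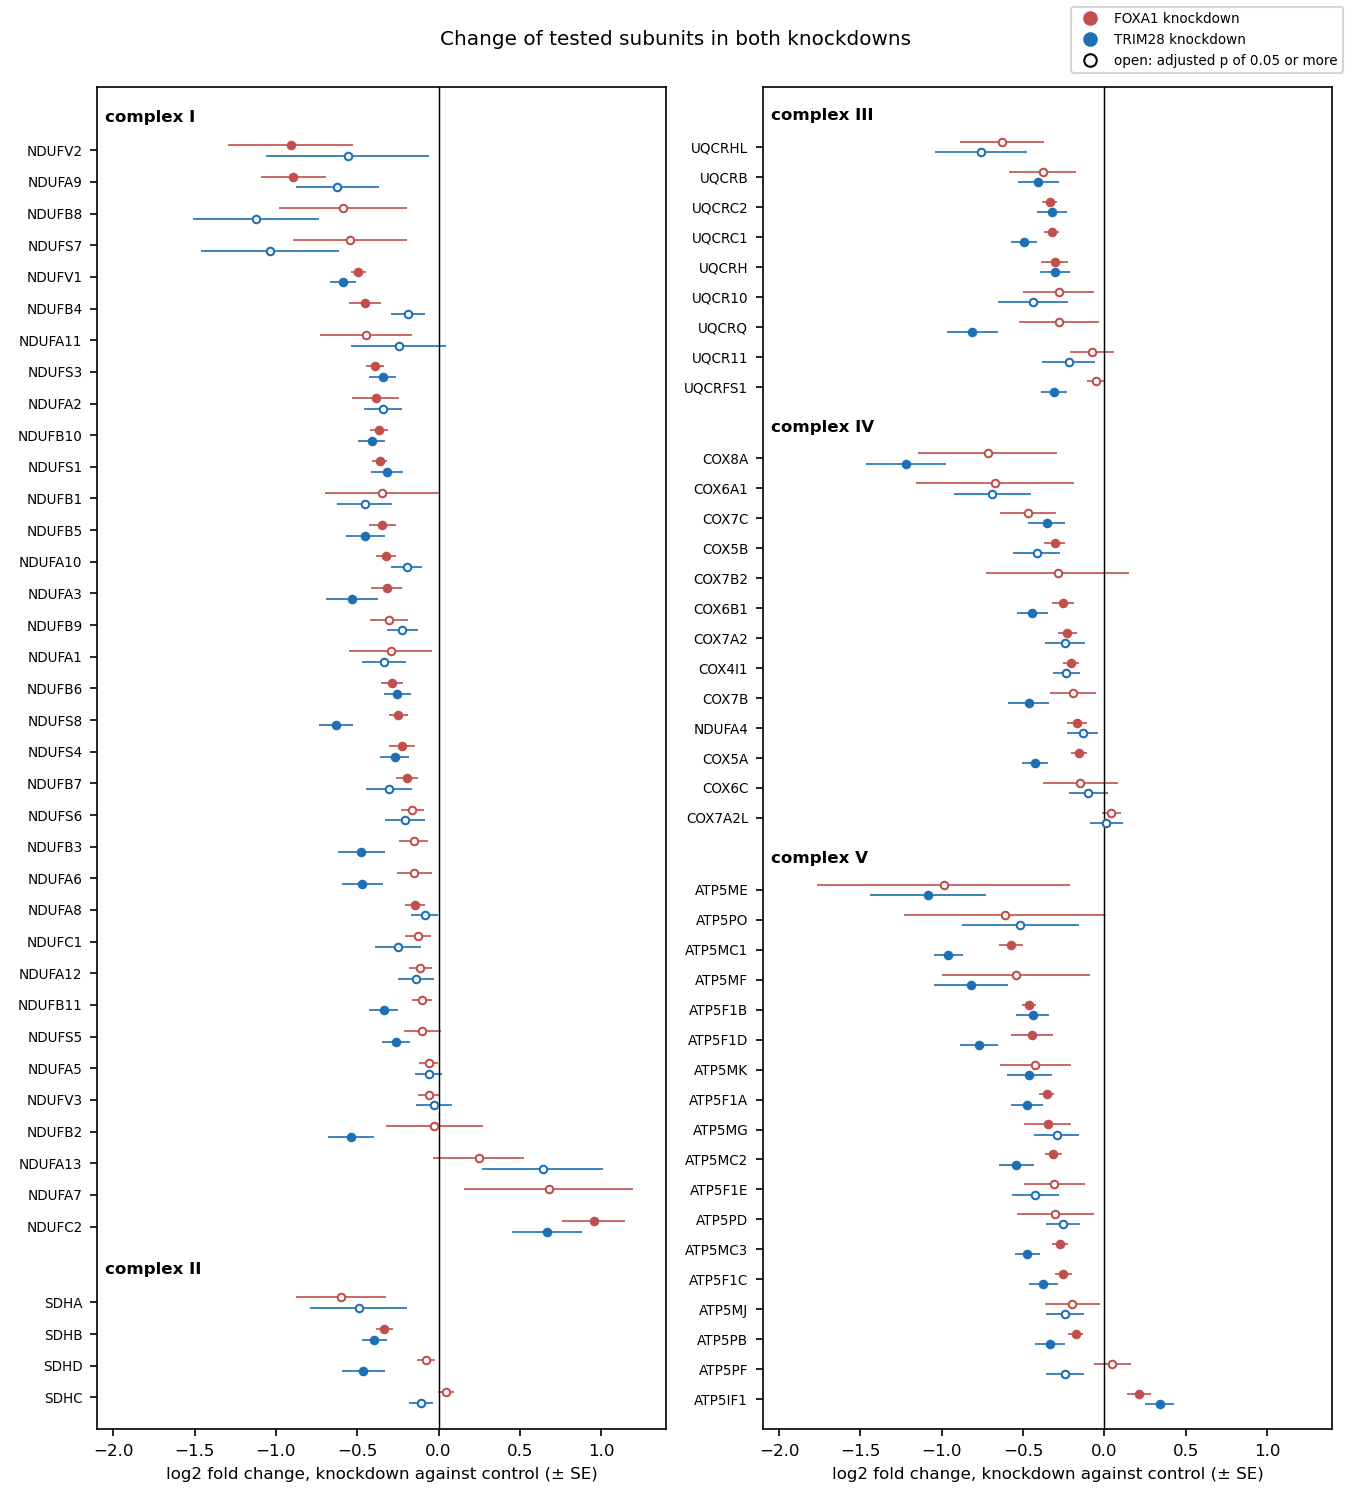
Log2 fold change (knockdown against control, bars ± SE, n = 3 against 3) of tested subunits by complex in the FOXA1 knockdown (red) and TRIM28 knockdown (blue), filled where the adjusted p is below 0.05. Nearly all points lie left of 0; NDUFC2 and ATP5IF1 are the filled points on the right in both.

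Complex I, the NADH dehydrogenase, had 17 of 36 tested subunits lower after FOXA1 knockdown and 14 of 35 after TRIM28 knockdown, with medians of -0.27 and -0.32, and 1 subunit higher in each. Of all tested genes, 26.3% fell and 26.1% rose after FOXA1 knockdown, and 13.3% went each way after TRIM28 knockdown. The nuclear core subunits, which carry the flavin and the iron-sulfur clusters, fell in 6 of 7 and 4 of 7 cases (medians -0.39 and -0.56), and the accessory subunits in 11 of 29 and 10 of 28 (medians -0.19 and -0.27). NDUFV1 (chr11:67605653-67612554, plus strand, GRCh38), which binds NADH and the flavin, stood at 249, 243 and 236 CPM in the FOXA1 controls and 173, 175 and 169 CPM after FOXA1 knockdown (a log2 fold change of -0.49 with SE 0.05 and adjusted p = 5.85e-10). In the TRIM28 libraries it stood at 254, 268 and 249 CPM in controls and 179.7, 166 and 167 after knockdown (a log2 fold change of -0.59 with SE 0.08 and adjusted p = 0.000955). In both sets all knockdown libraries were below all controls, by a gap wider than the spread within either group. NDUFS1, the largest iron-sulfur subunit, had 235, 246 and 242 CPM in FOXA1 controls and 187, 185 and 191 after knockdown (a log2 fold change of -0.36 with SE 0.05 and adjusted p = 1.71e-07). After TRIM28 knockdown the log2 fold change of NDUFS1 was -0.32 (adjusted p = 0.0375), and this call was lost on leaving out control replicate 2 or 3 or knockdown replicate 1 or 2 (adjusted p 0.0993 to 0.143) and with scaling by library size alone (adjusted p = 0.0602). NDUFS3, a core subunit of the arm in the matrix, had 116, 123 and 129 CPM in FOXA1 controls and 95.4, 91.0 and 94.1 after knockdown (a log2 fold change of -0.39 with SE 0.06 and adjusted p = 9.77e-07), with no overlap of the groups.

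NDUFS8 (chr11:68030617-68036644, plus strand), which carries iron-sulfur clusters near the quinone site, fell in both knockdowns by different amounts. It stood at 116, 108 and 103 CPM in FOXA1 controls and 90.5, 90.4 and 94.5 after knockdown (a log2 fold change of -0.25 with SE 0.06 and adjusted p = 0.000639). In the TRIM28 libraries it stood at 125, 125 and 116 CPM in controls and 90.3, 77.1 and 68.8 after knockdown (a log2 fold change of -0.63 with SE 0.11 and adjusted p = 0.0026). The groups did not overlap in either set, and the TRIM28 value without knockdown replicate 3 was -0.55. NDUFB10, an accessory subunit of the membrane arm, had 196, 195 and 175 CPM in TRIM28 controls and 141, 143 and 141 after knockdown (a log2 fold change of -0.41 with SE 0.08 and adjusted p = 0.00521). After FOXA1 knockdown its log2 fold change was -0.37 (adjusted p = 1.47e-06), so it was lower in 6 of 6 knockdown libraries than in any control of its set. The low-level core subunits NDUFS7 and NDUFV2 had log2 fold changes of -0.55 (adjusted p = 0.199) and -0.91 (adjusted p = 0.0486) after FOXA1 knockdown. The call of NDUFV2 was lost on leaving out control replicate 1, 2 or 3 or knockdown replicate 1 or 2 (adjusted p 0.0555 to 0.284). It was also lost in DESeq2 (adjusted p = 0.107), in the single fit of 12 libraries (0.157), with scaling by library size alone (0.053) and with no low count filter (0.0678).

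NDUFC2 (chr11:78068297-78079862, minus strand), an accessory subunit of the membrane arm, was the complex I member that rose in the fits of all libraries. It was a low-level member at a median of 1.81 FPKM. Its counts were 51, 50 and 63 in the FOXA1 controls and 106, 85 and 135 after FOXA1 knockdown. As CPM these are 3.67, 3.34 and 4.79, then 7.01, 6.35 and 9.43 (a log2 fold change of 0.96 with SE 0.19 and adjusted p = 0.000134), and every knockdown library was above every control. In the TRIM28 libraries it stood at 4.40, 4.44 and 3.54 CPM in controls and 7.60, 6.29 and 5.76 after knockdown (a log2 fold change of 0.67 with SE 0.21 and adjusted p = 0.042). The groups again did not overlap, but that call was lost on leaving out control replicate 1, 2 or 3 or knockdown replicate 1 or 2 (adjusted p 0.0892 to 0.16), with no low count filter (adjusted p = 0.0696) and with the replicate number as a block (adjusted p = 0.0542). Among the 9 low-level members with same-strand overlap, NDUFC2 shares exon bases with the readthrough gene NDUFC2-KCTD14. NDUFA13, another low-level subunit, lay above 0 in both knockdowns with log2 fold changes of 0.25 (adjusted p = 0.478) and 0.64 (adjusted p = 0.226), and neither passed the test with all libraries; without TRIM28 knockdown replicate 3 it was 0.93 (adjusted p = 0.0162). Without that replicate, 21 of 36 complex I subunits were lower and 2 higher, with 5 of 7 core and 16 of 29 accessory subunits lower. In that fit 23.5% of all tested genes fell and 21.5% rose.

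Among the other accessory subunits of complex I, NDUFA3, NDUFB5, NDUFB6 and NDUFS4 also fell in both knockdowns. Their log2 fold changes ran from -0.35 (NDUFB5) to -0.23 (NDUFS4) after FOXA1 knockdown and from -0.53 (NDUFA3) to -0.25 (NDUFB6) after TRIM28 knockdown. NDUFA2, NDUFA8, NDUFA9, NDUFA10, NDUFB4 and NDUFB7 passed the test in the FOXA1 set and not in the TRIM28 set. NDUFB4, one of the most abundant complex I messages, stood at 515, 474 and 592 CPM in FOXA1 controls and 389, 349 and 416 after knockdown (a log2 fold change of -0.45 with SE 0.10 and adjusted p = 0.00694), with no overlap, and had a log2 fold change of -0.19 (adjusted p = 0.205) in the TRIM28 set. NDUFA9, a low-level subunit of the joint between the arms, had log2 fold changes of -0.89 (adjusted p = 0.000566) and -0.62 (adjusted p = 0.098). NDUFA6, NDUFB2, NDUFB3, NDUFB11 and NDUFS5 passed in the TRIM28 set alone, from -0.54 (NDUFB2) to -0.26 (NDUFS5). The difference between the knockdowns was called for none of these members. The other complex I members, NDUFA1, NDUFA5, NDUFA7, NDUFA11, NDUFA12, NDUFB1, NDUFB8, NDUFB9, NDUFC1, NDUFS6 and NDUFV3, were called in neither set, with FOXA1 values from -0.59 (NDUFB8) to 0.68 (NDUFA7).

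Complex II, the succinate dehydrogenase, has 4 subunits, of which 1 fell after FOXA1 knockdown and 2 after TRIM28 knockdown (where 26.3 and 13.3% of all tested genes fell). SDHB (chr1:17018722-17054032, minus strand), the iron-sulfur subunit, fell in both. It stood at 183, 193 and 203 CPM in FOXA1 controls and 149, 152 and 158 after knockdown (a log2 fold change of -0.33 with SE 0.05 and adjusted p = 2.73e-06). In the TRIM28 libraries it stood at 188, 199 and 196 CPM in controls and 149, 142 and 153 after knockdown (a log2 fold change of -0.40 with SE 0.08 and adjusted p = 0.00526). No SDHB knockdown value reached a control value. The membrane anchor SDHD was at 99.4, 97.7 and 105 CPM in FOXA1 controls and 99.2, 89.1 and 97.5 after knockdown (a log2 fold change of -0.08 with SE 0.06 and adjusted p = 0.271), with overlapping groups. After TRIM28 knockdown it stood at 70.0, 67.2 and 96.4 CPM, below controls of 109, 111 and 102 (a log2 fold change of -0.46 with SE 0.13 and adjusted p = 0.0272), and the call was lost on leaving out control replicate 1, 2 or 3 or knockdown replicate 1 or 2 (adjusted p 0.0667 to 0.106). The other anchor, SDHC, had 181, 185 and 182 CPM in FOXA1 controls and 199.7, 184 and 182 after knockdown, a log2 fold change of 0.05 (adjusted p = 0.436), and -0.11 (adjusted p = 0.309) after TRIM28 knockdown. SDHA, at under 4 CPM in all libraries, had log2 fold changes of -0.60 (adjusted p = 0.071) and -0.49 (adjusted p = 0.243). On leaving out TRIM28 knockdown replicate 3, 2 of the 4 were lower, where 23.5% of all tested genes fell.

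Complex III, the cytochrome bc1 complex, had 3 of 9 members lower after FOXA1 knockdown and 6 of 9 after TRIM28 knockdown, and all 9 below 0 in both (medians -0.30 and -0.41). Of all tested genes, 26.3 and 13.3% fell, and the FOXA1 share of complex III (33.3%) was near the first of these. UQCRC1 (chr3:48599002-48610976, minus strand) and UQCRC2, the core proteins on the matrix side, fell in both. UQCRC1 stood at 345, 358 and 339 CPM in FOXA1 controls and 284, 273 and 276 after knockdown (a log2 fold change of -0.32 with SE 0.05 and adjusted p = 6.67e-07). Its TRIM28 libraries stood at 338, 369 and 344 CPM in controls and 249, 234 and 262 after knockdown (a log2 fold change of -0.50 with SE 0.08 and adjusted p = 0.0024). Both sets were free of overlap. UQCRC2 had 427, 439.6 and 444 CPM in FOXA1 controls and 354, 329 and 354 after knockdown (a log2 fold change of -0.34 with SE 0.05 and adjusted p = 3.62e-07). UQCRH had 377, 342 and 436 CPM in FOXA1 controls and 308, 298 and 329.5 after knockdown (a log2 fold change of -0.30 with SE 0.08 and adjusted p = 0.0127), a call lost on leaving out knockdown replicate 1 or 2 (adjusted p 0.0617 to 0.0903). For UQCRH the highest knockdown value lay just under the lowest control.

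UQCRQ (chr5:132866630-132868847, plus strand), a small subunit beside cytochrome b, had the lowest value of complex III in the TRIM28 set. It stood at 78.8, 76.5 and 58.6 CPM in TRIM28 controls and 32.5, 42.7 and 46.8 after knockdown (a log2 fold change of -0.81 with SE 0.15 and adjusted p = 0.00512), without overlap. In the FOXA1 libraries UQCRQ stood at 77.8, 57.8 and 90.5 CPM and 53.3, 55.9 and 76.9 (a log2 fold change of -0.28 with SE 0.25 and adjusted p = 0.41), and the groups overlapped. UQCRFS1, the Rieske iron-sulfur protein, had 189.7, 190.3 and 182 CPM in TRIM28 controls and 152, 142 and 160.0 after knockdown (a log2 fold change of -0.31 with SE 0.08 and adjusted p = 0.0188). That call was lost on leaving out control replicate 1, 2 or 3 or knockdown replicate 2 (adjusted p 0.0564 to 0.0778). After FOXA1 knockdown UQCRFS1 had a log2 fold change of -0.05 (adjusted p = 0.452), with controls of 167, 189 and 159 CPM around the knockdown values of 164, 164 and 168. CYC1, which encodes cytochrome c1 of the same complex and falls outside the naming rule, had 263, 275 and 250.3 CPM in FOXA1 controls and 205, 207 and 218 after knockdown (a log2 fold change of -0.32 with SE 0.05 and adjusted p = 2.42e-06). CYC1 in the TRIM28 set had 275, 284 and 266 CPM in controls and 192, 166 and 183 after knockdown (a log2 fold change of -0.61 with SE 0.08 and adjusted p = 0.00102). UQCRB, at log2 fold changes of -0.38 (adjusted p = 0.205) and -0.41 (adjusted p = 0.0404), overlapped between groups in the TRIM28 set. UQCR10, UQCR11 and UQCRHL were called in neither set, with TRIM28 values from -0.76 (UQCRHL) to -0.22 (UQCR11). With TRIM28 knockdown replicate 3 left out, 5 of the 9 complex III members were lower, where 23.5% of all tested genes fell.

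Complex IV, the cytochrome c oxidase, had 6 of 13 tested members lower after FOXA1 knockdown and 5 of 12 after TRIM28 knockdown, with medians of -0.23 and -0.39 and none higher. The shares of all tested genes were 26.3 and 13.3% down and 26.1 and 13.3% up. COX5B, a subunit on the matrix side that binds zinc, stood at 132, 118 and 142 CPM in FOXA1 controls and 104, 98.5 and 115 after knockdown (a log2 fold change of -0.31 with SE 0.07 and adjusted p = 0.000347). The groups did not overlap. A single fit of all 12 libraries ended this call, with an adjusted p of 0.0716. COX5B in the TRIM28 set had 132, 132 and 115 CPM in controls and 98.8, 112 and 72.7 after knockdown, a log2 fold change of -0.42 (adjusted p = 0.0583), just short of the threshold. COX4I1, the common isoform of the subunit that binds ATP, had 491, 485 and 538 CPM in FOXA1 controls and 449.6, 426 and 437 after knockdown (a log2 fold change of -0.21 with SE 0.05 and adjusted p = 0.000509), and -0.23 (adjusted p = 0.0637) after TRIM28 knockdown. COX7A2 had 152, 149 and 177 CPM in FOXA1 controls and 133, 132 and 143 after knockdown (a log2 fold change of -0.23 with SE 0.06 and adjusted p = 0.00211), a call that ended in the single fit of 12 libraries (adjusted p = 0.102). COX7A2L, which joins complexes III and IV, was near 0 in both, with log2 fold changes of 0.04 (adjusted p = 0.57) and 0.01 (adjusted p = 0.936).

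COX5A, a matrix-side subunit, had 195, 208 and 184 CPM in TRIM28 controls and 146, 149 and 142 after knockdown (a log2 fold change of -0.43 with SE 0.08 and adjusted p = 0.00465), without overlap. After FOXA1 knockdown COX5A had a log2 fold change of -0.16 (adjusted p = 0.0129), a call lost on leaving out control replicate 1 or knockdown replicate 1 or 2 (adjusted p 0.0548 to 0.129) and in the single fit of 12 libraries (adjusted p = 0.0772). COX6B1, which faces the space between the membranes, had 210.3, 217 and 180.4 CPM in TRIM28 controls and 143, 160.3 and 144 after knockdown (a log2 fold change of -0.44 with SE 0.10 and adjusted p = 0.0078), a call lost on leaving out control replicate 2 (adjusted p = 0.0509). COX8A (chr11:63974620-63976543, plus strand), the smallest subunit, stood at 23.3, 23.2 and 12.8 CPM in TRIM28 controls and 8.58, 10.2 and 6.66 after knockdown (a log2 fold change of -1.22 with SE 0.25 and adjusted p = 0.0069). Control replicate 3 was well under its partners and still above all knockdown libraries. COX8A in the FOXA1 libraries had 24.1, 13.7 and 22.9 CPM in controls and 7.80, 10.5 and 18.5 after knockdown (a log2 fold change of -0.72 with SE 0.43 and adjusted p = 0.239), and control 2 was below knockdown 3. NDUFA4 had log2 fold changes of -0.17 (adjusted p = 0.0257) and -0.13 (adjusted p = 0.33), the first lost on leaving out control replicate 3 or knockdown replicate 1 or 2 (adjusted p 0.0583 to 0.215) and in the single fit (adjusted p = 0.133). COX7B and COX7C passed in the TRIM28 set alone, with -0.47 and -0.36, and COX6A1, COX6C and COX7B2 in neither. With TRIM28 knockdown replicate 3 left out, 7 of 13 complex IV members were lower, where 23.5% of all tested genes fell.

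Complex V had 9 of 18 tested members lower after FOXA1 knockdown and 11 of 18 after TRIM28 knockdown (medians -0.33 and -0.45), and its inhibitor was higher in both. Among all tested genes 26.3 and 13.3% fell, and 26.1 and 13.3% rose. The F1 head fell in 4 of 5 subunits in each knockdown and the c ring in 3 of 3. The peripheral stalk fell in 1 of 4 in each, and the small membrane subunits in 1 of 5 and 3 of 5. ATP5F1B (chr12:56638175-56645984, minus strand), the catalytic beta subunit, stood at 2661, 2888 and 2673 CPM in FOXA1 controls and 2079.7, 1923 and 1957 after knockdown (a log2 fold change of -0.46 with SE 0.04 and adjusted p = 3.83e-10). ATP5F1B in the TRIM28 set stood at 2587, 2828 and 2878 CPM in controls and 1932, 1852 and 2330.2 after knockdown (a log2 fold change of -0.44 with SE 0.10 and adjusted p = 0.0105), a call lost on leaving out control replicate 3 (adjusted p = 0.0561). The groups did not overlap in either set. ATP5F1A, the alpha subunit that alternates with beta in the head, had 913, 989.5 and 961 CPM in FOXA1 controls and 757, 718 and 763 after knockdown (a log2 fold change of -0.36 with SE 0.04 and adjusted p = 7.73e-08), and -0.48 (adjusted p = 0.00646) after TRIM28 knockdown. ATP5F1C, the gamma shaft, had log2 fold changes of -0.25 (adjusted p = 0.000201) and -0.37 (adjusted p = 0.0113), the second lost on leaving out control replicate 2 or 3 (adjusted p 0.0595 to 0.0601). ATP5F1D, the delta subunit at the foot of the shaft, stood at 145, 154 and 142 CPM in TRIM28 controls and 102, 73.2 and 82.8 after knockdown (a log2 fold change of -0.77 with SE 0.12 and adjusted p = 0.00163). Among the stalk subunits ATP5PB had a log2 fold change of -0.18 (adjusted p = 0.00207) after FOXA1 knockdown, which the single fit of 12 libraries moved to an adjusted p of 0.0669. ATP5MG passed in the FOXA1 set alone, with -0.35, and ATP5ME, ATP5MF and ATP5MK in the TRIM28 set alone, from -1.08 (ATP5ME) to -0.46 (ATP5MK). ATP5F1E, ATP5MJ, ATP5PD, ATP5PF and ATP5PO were called in neither. On leaving out TRIM28 knockdown replicate 3, 12 of 18 complex V members were lower and 1 higher, where 23.5% of all tested genes fell and 21.5% rose.

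ATP5MC1, ATP5MC2 and ATP5MC3 encode the same mature c subunit with different targeting peptides, so their sum is the message for 1 protein. ATP5MC1 (chr17:48892765-48895871, plus strand) stood at 77.9, 83.4 and 69.4 CPM in FOXA1 controls and 51.9, 48.0 and 55.3 after knockdown (a log2 fold change of -0.57 with SE 0.07 and adjusted p = 1.21e-07). ATP5MC1 in the TRIM28 set stood at 74.4, 81.7 and 77.7 CPM in controls and 40.4, 40.8 and 38.9 after knockdown (a log2 fold change of -0.96 with SE 0.09 and adjusted p = 0.000207). The 3 TRIM28 knockdown libraries lay close together, far below the lowest control. ATP5MC2 had log2 fold changes of -0.31 (adjusted p = 6.90e-06) and -0.54 (adjusted p = 0.00518). ATP5MC3 stood at 323, 331 and 307 CPM in TRIM28 controls and 238, 219.6 and 235 after knockdown (a log2 fold change of -0.47 with SE 0.08 and adjusted p = 0.00243), and had a log2 fold change of -0.27 (adjusted p = 1.95e-05) after FOXA1 knockdown. Median control levels were 34.5 FPKM for ATP5MC1, 106 for ATP5MC2 and 120 for ATP5MC3. ATP5MC1 made up 13.4% of the summed c subunit FPKM in FOXA1 controls and 11.3% after knockdown, and 13.0% in TRIM28 controls and 9.87% after knockdown. Each of these shares had an exact two-sided permutation p of 0.1, the smallest that 3 against 3 allows, and an adjusted value of 0.16 over 8 ratio comparisons.

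ATP5IF1 (chr1:28236109-28246906, plus strand), the inhibitory factor that binds the F1 head and blocks ATP hydrolysis when the membrane potential fails, rose in both knockdowns. It stood at 59.7, 48.6 and 55.1 CPM in FOXA1 controls and 61.0, 60.6 and 67.4 after knockdown (a log2 fold change of 0.21 with SE 0.07 and adjusted p = 0.0177). In the TRIM28 libraries it stood at 56.9, 52.3 and 49.8 CPM in controls and 68.8, 67.0 and 65.5 after knockdown (a log2 fold change of 0.34 with SE 0.09 and adjusted p = 0.0217). All knockdown values were above all controls in both sets, by a narrow margin in the FOXA1 set. The FOXA1 call was lost on leaving out control replicate 2 or knockdown replicate 3 (adjusted p 0.0981 to 0.145) and in the single fit of 12 libraries (adjusted p = 0.0606), and the TRIM28 call on leaving out control replicate 2 or 3 or knockdown replicate 1 or 2 (adjusted p 0.0624 to 0.114). Relative to ATP5F1B, the ATP5IF1 FPKM moved from 1.89 ± 0.27% in FOXA1 controls to 3.01 ± 0.24% after knockdown, and from 1.83 ± 0.23% in TRIM28 controls to 3.16 ± 0.43% (SD, n = 3). Both ratios had an exact permutation p of 0.1, again the smallest possible.

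**Figure D3:**
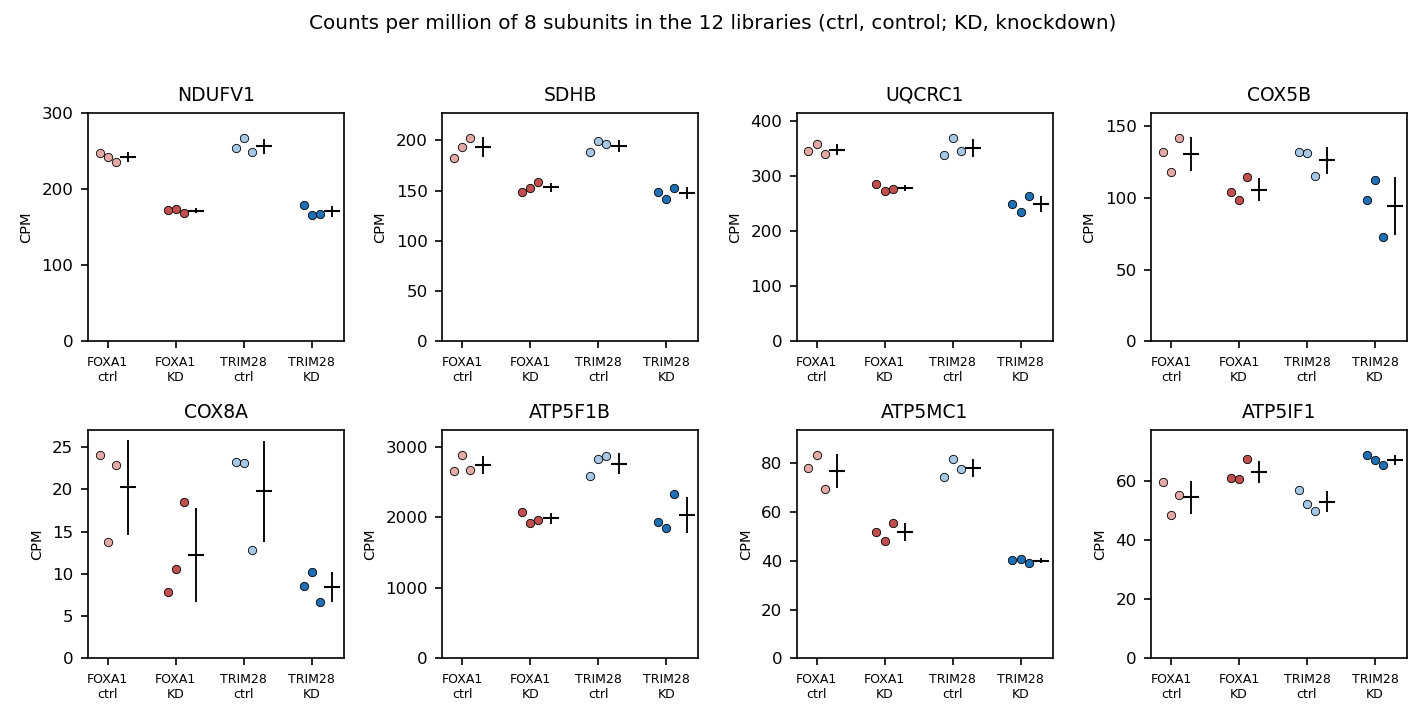
CPM of 8 subunits in each of the 12 libraries (points), with the mean (horizontal bar) ± SD (vertical bar, n = 3) beside each group. NDUFV1, SDHB, UQCRC1, ATP5F1B and ATP5MC1 show knockdown libraries below all controls in both sets and ATP5IF1 above them, while COX8A overlaps in the FOXA1 set and COX5B varies among the TRIM28 knockdown libraries.

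The 2 knockdowns lowered many of the same subunits. In 23 members the call was down in both. That is 63.9% of the members called down after FOXA1 knockdown and 60.5% of those called down after TRIM28 knockdown. Of all genes, 1461 were down in both, which is 10.1% of the 14498 tested in both. These 1461 stand against 3938 genes called down after FOXA1 knockdown and 1999 after TRIM28 knockdown. The 10.1% is a share of tested genes and cannot be set against the 2 shares of called members. Without TRIM28 knockdown replicate 3 the number of members down in both was 29, where 15.9% of tested genes were down in both. The 23 members down in both with all libraries were 9 subunits of complex I, 1 of complex II, 3 of complex III, 2 of complex IV and 8 of complex V. NDUFC2 and ATP5IF1 were the 2 members up in both, where the background was 9.8%. The comparisons have separate control libraries, and share the lower FOXA1 level given above. TRIM28 mRNA was also lower in both, by less after FOXA1 knockdown.

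The difference between the 2 effects was tested over all 12 libraries. It was called for 2 of 80 members, both less negative after FOXA1 knockdown, where 5.98% of 15921 genes were called in that direction and 4.59% in the other (10.6% in all). The median difference of the members was 0.09. ATP5MC1 differed by 0.40 on the log2 scale (SE 0.11, adjusted p = 0.0328) and NDUFS8 by 0.39 (SE 0.12, adjusted p = 0.0465). UQCRQ, with 0.54 (adjusted p = 0.281), SDHD, with 0.40 (adjusted p = 0.114), and ATP5F1D, with 0.34 (adjusted p = 0.239), did not pass. Scaled by library size alone, 0 members were called and the share of positive calls among all genes moved from 56.6 to 40.0%. Without TRIM28 knockdown replicate 3 the count was 9, where the background was 12.7% (8.64% in the other direction), and it was 0 to 3 without any other library.

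**Figure D4:**
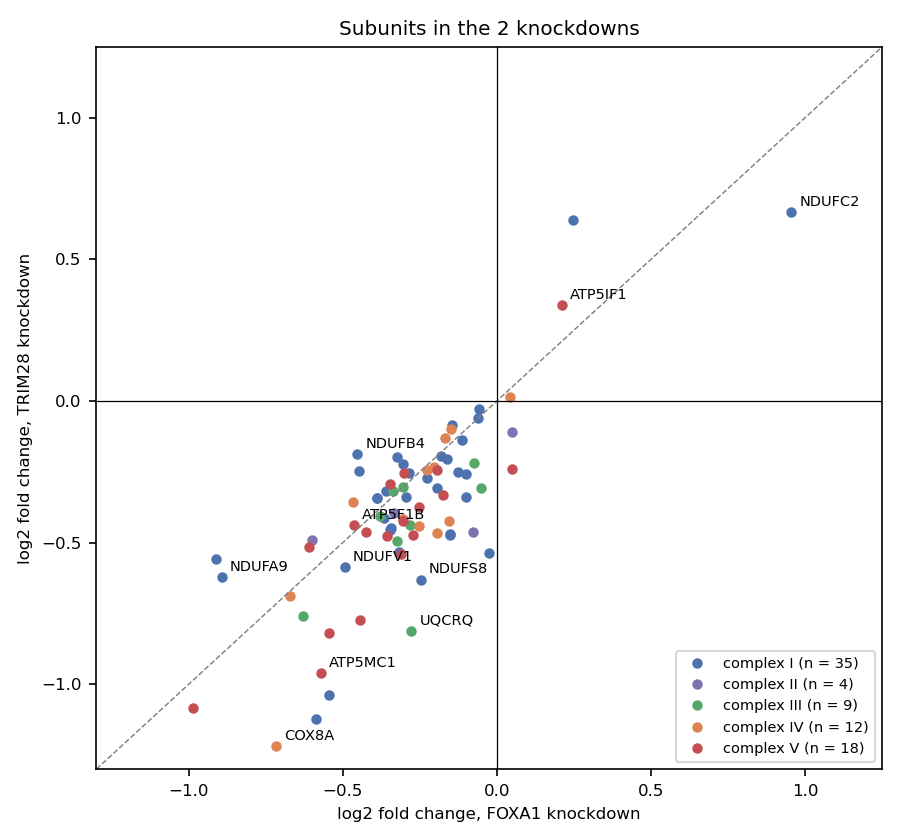
Log2 fold change of each subunit after TRIM28 knockdown against that after FOXA1 knockdown, coloured by complex (n = 78 subunits tested in both); the dashed line marks equal change. Most points lie at the lower left, and ATP5MC1, NDUFS8, UQCRQ and COX8A lie below the line.

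Many subunits are short genes, and short genes had lower medians in both comparisons. Member lengths in the tables ran from 421 to 11660 bases with a median of 1578.5, and 29 were under 1000 bases. Over all tested genes, those under 1000 bases had a median log2 fold change of -0.17 after FOXA1 knockdown and -0.20 after TRIM28 knockdown, and those of 4000 bases or more 0.03 and 0.11. The members under 1000 bases had medians of -0.30 and -0.41. The 10 members of 4000 bases or more had -0.33 and -0.27, and all 10 lay below 0 in both. The medians of the members were lower than those of all genes in each of the 4 length classes.

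Spread within a group was also wider for short members, as it was for short genes at large. The highest over the lowest CPM among the 3 FOXA1 controls had a median of 1.70 for the 7 members under 600 bases, 1.23 for those of 1000 to under 2000 bases and 1.19 from 2000 bases on. Over all tested genes these medians were 1.65, 1.24 and 1.15. Members under 600 bases had 1.33 in the FOXA1 knockdown, 1.26 in the TRIM28 controls and 1.42 in the TRIM28 knockdown. All tested genes of that length had 1.61, 1.56 and 1.76 in these groups. FOXA1 control 2 was the lowest control for 53 of 80 members and control 3 the highest for 51, and FOXA1 knockdown replicate 3 was the highest knockdown library for 62. Among TRIM28 controls, replicate 3 was lowest for 56 of 78. Genes under 1000 bases took 3.35 to 3.76% of counts in FOXA1 controls and 3.28 to 3.59% after knockdown, and 3.42 to 3.78% in TRIM28 controls and 2.87 to 3.50% after knockdown. The part of these library shifts in the falls of short members was not tested. Without FOXA1 control 2, 47 members were down, and without FOXA1 knockdown 2, 25, where 23.9% and 22.3% of all tested genes were down.

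**Figure D5:**
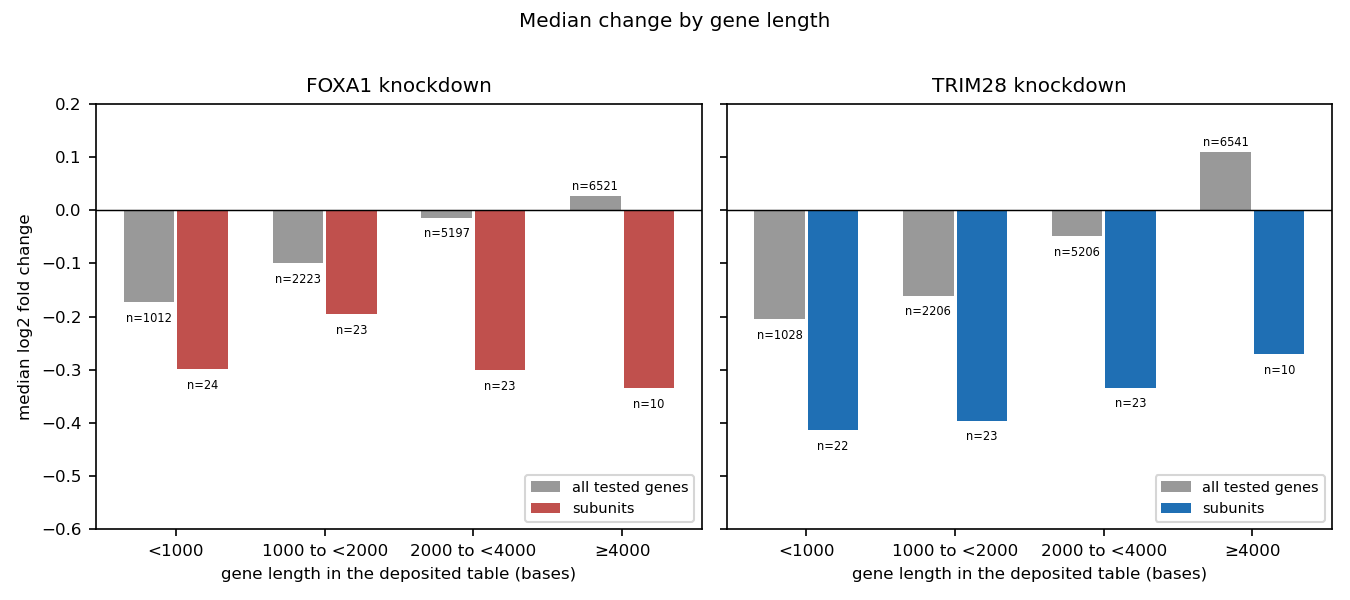
Median log2 fold change of all tested genes (grey) and of the subunits (coloured) in 4 classes of gene length, for both knockdowns; n is the number of genes in each bar. The subunit bars lie below 0 and below the grey bars in every class, the grey bars rising from -0.17 to 0.03 and from -0.20 to 0.11 with length.

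Other genes of the pathway were counted from lists written from general knowledge. Of all tested genes, 26.3% were down and 26.1% up after FOXA1 knockdown. After TRIM28 knockdown 13.3% went each way, or 23.5% down and 21.5% up without knockdown replicate 3. The counts stand against these shares. Assembly factors of complex I were down in 10 of 16 and up in 2 after FOXA1 knockdown, and down in 7 after TRIM28 knockdown (medians -0.26 and -0.27), or 10 down and 2 up without replicate 3. ECSIT, a complex I assembly factor, had log2 fold changes of -0.62 (adjusted p = 1.41e-08) and -0.80 (adjusted p = 0.00202). Complex III factors fell in 3 of 6 and 2 of 6, with UQCC2, which helps to build cytochrome b into the complex, at log2 fold changes of -0.78 (adjusted p = 3.11e-09) and -0.62 (adjusted p = 0.00155). Complex IV factors fell in 5 of 17 and 3 of 18 (29.4 and 16.7%), near those shares, and rose in 1 and 2. Of 4 complex II factors 1 and 0 fell, and of 3 complex V factors none fell and TMEM70, which helps c subunits to assemble, rose in both, at log2 fold changes of 0.56 (adjusted p = 2.83e-07) and 0.42 (adjusted p = 0.0105). The second TMEM70 call was lost on leaving out control replicate 1 or 2 (adjusted p 0.0539 to 0.0658).

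Subunits and mobile carriers outside the naming rule fell in 3 of 6 and 4 of 6 and rose in 2 and 1. NDUFAB1, the acyl carrier subunit of complex I, had log2 fold changes of -0.21 (adjusted p = 0.00237) and -0.35 (adjusted p = 0.00949). CYCS, cytochrome c itself, had log2 fold changes of -0.13 (adjusted p = 0.204) and -0.28 (adjusted p = 0.0277), the second lost on leaving out control replicate 2 or 3 or knockdown replicate 1 or 2 (adjusted p 0.0511 to 0.105). NDUFA4L2, a relative of NDUFA4 known as a hypoxia target, stood at 8.20, 6.69 and 6.84 CPM in FOXA1 controls and 17.6, 19.3 and 16.0 after knockdown (a log2 fold change of 1.28 with SE 0.13 and adjusted p = 2.38e-09). After TRIM28 knockdown it had a log2 fold change of 0.71 (adjusted p = 0.023), a call lost on leaving out control replicate 1 or 3 or knockdown replicate 1 or 2 (adjusted p 0.0639 to 0.107). Coenzyme Q synthesis genes fell in 7 of 12 and 4 of 12 and rose in 1 and 0 (medians -0.31 and -0.35). Without replicate 3, 8 of 12 were lower in the TRIM28 set, where 23.5% of all tested genes fell.

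The 13 mitochondrially encoded subunits were counted apart from the nuclear ones. After FOXA1 knockdown 5 rose and 1 fell (median 0.12), and after TRIM28 knockdown 1 rose and 1 fell (median -0.15). Without TRIM28 knockdown replicate 3 again 1 rose and 1 fell, with a median of -0.09. MT-ND2, of complex I, stood at 863, 873 and 866 CPM in FOXA1 controls and 1535, 1494 and 1617 after knockdown (a log2 fold change of 0.84 with SE 0.04 and adjusted p = 4.82e-16). MT-CO1, the catalytic subunit of complex IV, fell in both, with log2 fold changes of -0.44 (adjusted p = 2.01e-09) and -0.36 (adjusted p = 0.0263), the second lost on leaving out control replicate 1 or 3 or knockdown replicate 1 (adjusted p 0.0552 to 0.105). The count ratio of mitochondrial to nuclear subunits was 1.88 in FOXA1 controls and 2.32 after knockdown, and 2.12 and 2.45 in the TRIM28 libraries, where the groups overlapped. The libraries were made from poly(A)-selected RNA, and the part of that selection in the mitochondrial values was not tested.

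The TCA cycle feeds NADH and succinate to the chain. Its list here also holds genes of the pyruvate dehydrogenase complex, which are counted with it. Of its 18 genes, 13 fell after FOXA1 knockdown and 12 after TRIM28 knockdown, and 2 and 0 rose (medians -0.24 and -0.36). CS, citrate synthase, had log2 fold changes of -0.33 (adjusted p = 1.44e-06) and -0.71 (adjusted p = 0.000994). IDH2, the NADP-dependent isocitrate dehydrogenase, stood at 162, 163 and 148 CPM in FOXA1 controls and 286, 295 and 279 after knockdown (a log2 fold change of 0.86 with SE 0.05 and adjusted p = 1.03e-14). IDH2 fell in the TRIM28 set, with 161, 167 and 160.2 CPM in controls and 121, 115 and 133 after knockdown (a log2 fold change of -0.41 with SE 0.08 and adjusted p = 0.00655), and the difference between the 2 effects was 1.28 (adjusted p = 2.78e-07). Without TRIM28 knockdown replicate 3, 16 of the 18 genes of this list fell, where 23.5% of all tested genes fell. Carriers and porins fell in 4 of 7 in each and rose in 2 after FOXA1 knockdown and 0 after TRIM28 knockdown. SLC25A5, the ADP/ATP carrier, had log2 fold changes of -0.73 (adjusted p = 3.47e-14) and -0.98 (adjusted p = 0.00083).

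Regulators of mitochondrial gene expression were called in both directions. Of 18, 5 were up and 4 down after FOXA1 knockdown (27.8 and 22.2%, near the shares of all genes). After TRIM28 knockdown 2 were up and 4 down. Without knockdown replicate 3 these were 4 and 5, where 21.5% of all tested genes rose and 23.5% fell. PPARGC1A, the coactivator of mitochondrial biogenesis, stood at 7.91, 7.22 and 6.99 CPM in FOXA1 controls and 1.19, 1.05 and 1.75 after knockdown (a log2 fold change of -2.46 with SE 0.23 and adjusted p = 3.38e-10). After TRIM28 knockdown it had 3.16, 3.15 and 5.28 CPM against 6.85, 6.84 and 7.08 in controls (a log2 fold change of -0.84 with SE 0.24 and adjusted p = 0.028), a call lost on leaving out control replicate 1, 2 or 3 or knockdown replicate 1 or 2 (adjusted p 0.0888 to 0.103). ESRRA, a nuclear receptor that PPARGC1A coactivates, had log2 fold changes of -0.51 (adjusted p = 4.84e-08) and -0.49 (adjusted p = 0.0813). NRF1 had log2 fold changes of -0.20 (adjusted p = 0.0601) and 0.08 (adjusted p = 0.661), neither past the threshold, and GABPA had log2 fold changes of 0.22 (adjusted p = 0.00681) and 0.19 (adjusted p = 0.192). TFAM, which packages mitochondrial DNA, had log2 fold changes of -0.09 (adjusted p = 0.167) and -0.30 (adjusted p = 0.0231), the second lost on leaving out control replicate 1, 2 or 3 or knockdown replicate 1 (adjusted p 0.053 to 0.0962) and with scaling by library size alone (adjusted p = 0.061).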

How the data were processed

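RNA-seq of 12 poly(A)-selected LNCaP libraries was used, in 4 groups of 3 taken from the titles for controls and from the treatment labels for knockdowns. Knockdown titles read SH control, and some genotype labels carry neighbouring numbers, so neither set those groups. The deposited tables give whole-number read counts per gene and FPKM, which the authors computed. FPKM equalled counts over length and total counts for 33045 of 33045 genes checked (relative tolerance 0.001). Per the submitters' processing notes, coordinates are on GRCh38. Aligner, counting tool and strand setting were not given in the sources used here. Symbols on more than 1 line (453) held the same values on every line, and 1 line of each was kept.

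Each knockdown was tested against its own controls with edgeR 4.0.16 in R 4.3.3 (TMM, filterByExpr with a minimum count of 10 and a minimum total of 15, robust quasi-likelihood test, two-sided, Benjamini-Hochberg over all genes tested, threshold 0.05), and the difference of effects over all 12 libraries. SE is the log2 fold change over the root of F. CPM uses TMM-scaled totals. Totals of 12256092 to 15152890 counts set the precision. The test was tested on simulated counts. Alternatives were DESeq2 1.42.0, limma-voom 3.58.1, other scalings, filters, a 1.2-fold minimum, a replicate block and leaving out each library.

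The members, pathway lists and tests were chosen with earlier results of these data known. Full statistics went to up to 3 called members with the smallest p in each direction per complex and knockdown, and in each pathway list to up to 2 genes per direction, of which the text gives a part. Isoform sets are given as levels, and CYC1, CYCS and NDUFAB1 and the regulators PPARGC1A, NRF1, GABPA, ESRRA and TFAM throughout. Other named members were chosen after their values were seen. Some genes are counted but not reported here by name.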

Additional observations from a re-analysis of the deposited data

Results flagged for a closer look

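The effects of the 2 knockdowns differed for 2 of 80 tested subunits by a test of the difference itself (edgeR's quasi-likelihood test over 12 libraries), which is 2.5%, where 10.6% of all tested genes differed. ATP5MC1 differed by 0.398 on the log2 scale, FOXA1 effect minus TRIM28 effect, with -0.57 after FOXA1 knockdown and -0.96 after TRIM28 knockdown. That call was lost without any 1 of 8 of the 12 libraries (adjusted p 0.0514 to 0.0919). It was kept without FOXA1 control replicate 2, FOXA1 knockdown replicate 2 or TRIM28 knockdown replicate 1 or 3. NDUFS8 differed by 0.394, with -0.25 and -0.63. Its call was lost without any 1 of 9 libraries (adjusted p 0.0559 to 0.111) and kept without FOXA1 control replicate 1 or TRIM28 knockdown replicate 1 or 3.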

How the results depend on the processing

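No called member or called gene of the pathway lists changed its sign under the alternatives run for either knockdown or for the difference. The median of the members between the 2 control groups, which has no call, moved from -0.08 to 0.00 without FOXA1 control replicate 3, with 62 of 79 and then 40 of 80 members below 0. Scaling by library size alone turned the balance of difference calls over all genes, from 952 up and 731 down to 751 up and 1126 down. After FOXA1 knockdown the number of members up was 1 with all 12 libraries in 1 fit. It was 1 at a minimum fold of 1.2 and 1 to 2 with each library left out. The number down was 8 at a minimum fold of 1.2 and 25 to 47 with each library left out. At that minimum fold 2046 of 14953 tested genes fell and 2259 rose. After TRIM28 knockdown the number up was 0 at a minimum fold of 1.2. It was 1 with no low count filter, 1 with the replicate block and 0 to 3 with each library left out. The number down was 9 at a minimum fold of 1.2 and 14 to 47 with each library left out. At that minimum fold 766 of 14981 tested genes fell and 859 rose. The difference between effects was called up in 0 members with library size only, 0 at a minimum fold of 1.2 and 0 to 9 with each library left out. The causes were not tested, except that the minimum fold demands larger changes by construction. Among single genes and medians, 359 values lost their call, 85 gained one, 5 moved by more than the spread and 3060 kept their side. Over all tested genes, deviations of same-numbered libraries correlated at -0.021, 0.013 and 0.103 in the FOXA1 set. In the TRIM28 set they correlated at 0.025, -0.084 and 0.003. Among the 80 members of the FOXA1 set, replicate 2 was lowest for 53 in controls and 48 after knockdown. Replicate 3 was highest for 51 and 62. Among the 78 of the TRIM28 set, replicate 2 was highest for 49 and 45, and replicate 3 lowest for 56 and 41. Whether replicate numbers pair the samples for the members was not tested. With the replicate block, 51 members were down and 2 up after FOXA1 knockdown, where 4059 of 14953 tested genes fell and 3938 rose. After TRIM28 knockdown 43 were down and 1 up, where 1995 of 14981 tested genes fell and 1851 rose. With this block 2 members differed between effects and 0 between controls. Tested members under 5 FPKM had a median SE of 0.32 and 0.33 on the log2 scale in the FOXA1 and TRIM28 comparisons, against 0.07 and 0.11 at 5 FPKM or more. Fold changes of the low-level members are thus less precise, and the part of depth in this was not tested.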
